A study of Mus musculus with 12 samples.

Results

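The 35 genes of glucose breakdown and of the hypoxia-inducible response described here were taken by name from a list of glycolytic enzymes, transporters and regulators and of targets of hypoxia-inducible factor (HIF). They are 35 of the 33246 genes in the deposited table of raw counts, and all 35 were among the 14542 genes with enough counts to be tested. RNA was sequenced from primary fibroblasts of the ears of C57BL/6 mice of both sexes, 1 month old, which were used at passage 2 and kept for 48 h on alginate gels that carried the adhesion peptide RGD. All 4 groups share these cells, this peptide and this time. The groups of 3 samples differ in the crosslinking of the gel and in its stiffness: 2 kPa elastic, 20 kPa elastic, 2 kPa viscoelastic and 20 kPa viscoelastic. The elastic gels were crosslinked covalently and hold stress, whereas the viscoelastic gels were crosslinked ionically and relax it slowly. Crosslinking chemistry and stress relaxation change together between the gel types, so their parts cannot be told apart here. The study gives the samples as biological replicates, and no label says which animals or cultures they came from, so the p-values measure the spread between these samples.

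Glycolysis splits glucose into pyruvate, which is either reduced to lactate by lactate dehydrogenase and exported by monocarboxylate carriers, or oxidised in mitochondria by pyruvate dehydrogenase, which the PDK kinases inhibit. HIF-1 is a transcription factor whose alpha subunit, Hif1a, is made constantly and degraded when oxygen allows the EGLN prolyl hydroxylases to mark it, so its activity is set largely at the protein level. It binds a short core sequence in promoters and raises many glycolytic genes, the lactate carrier Slc16a3, the growth factor Vegfa and its own hydroxylases Egln1 and Egln3, and fibroblasts are known to shift toward glycolysis when they are activated.

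Totals ran from 36626221 to 43612804 counts per sample, and mitochondrial entries took 1.77% to 3.34% of them. The members' own counts ran from 47 to 100 per sample for Ankrd37, the lowest, to between 46081 and 65752 for Pkm, the highest. All 12 of 12 fibroblast markers had a mean of at least 1 CPM (counts scaled to library size with the TMM method). Their sum, mainly Fn1, was 75830 to 83820 CPM on 2-kPa elastic, 68770 to 71930 on 20-kPa elastic, 66540 to 71010 on 2-kPa viscoelastic and 58770 to 61300 on 20-kPa viscoelastic gels. Of 5 chondrocyte markers 4 reached that mean, with Col2a1 at 2839 and Acan at 1139 CPM, so the labelled fibroblasts also carried abundant cartilage transcripts. The chondrocyte sum was 4405 to 5718 CPM on 2-kPa elastic, 4338 to 5602 on 2-kPa viscoelastic and 4503 to 5775 on 20-kPa viscoelastic gels, and lower, at 4096 to 4152, in all 3 samples on 20-kPa elastic gels. Summed markers of keratinocytes, endothelium, leukocytes, skeletal muscle, melanocytes and adipocytes stayed at or below 10.9 CPM, with Tyr at 0. Schwann cell markers, mainly S100b, summed to 74.5 to 75.7 CPM on 2-kPa elastic, 52.4 to 62.5 on 2-kPa viscoelastic, 43.0 to 47.2 on 20-kPa elastic and 71.6 to 93.0 on 20-kPa viscoelastic gels. Pericyte markers, mainly Cspg4, summed to 463 to 542, 314 to 327, 364 to 499 and 273 to 329 CPM in the same order. The part of other cell types in the results below was not tested, and in these bulk samples fewer cells of a type and less RNA per cell cannot be told apart.

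On soft gels many members differed between the gel types, mostly in 1 direction. On stiff gels members differed in both directions, at shares near those of all tested genes. On elastic gels members also differed between stiffnesses. Log2 fold changes come from edgeR's quasi-likelihood test with a coefficient per group, and a gene was called when its Benjamini-Hochberg (BH) adjusted p over all 14542 tested genes was under 0.05. On 2-kPa gels, viscoelastic against elastic, 11 members (31.4%) were called higher and 2 (5.71%) lower. Of all tested genes 8.77% and 11.1% were called in these directions, and the members' median log2 fold change was 0.13. On 20-kPa gels 7 (20%) were called higher and 8 (22.9%) lower, beside 17.4% and 16.1% of all genes, with a median of -0.03. Without the TMM factors, on total counts alone, this split was 8 higher and 5 lower, and 2937 of the 4838 genes called in that fit were higher, beside 2527 of 4866 with TMM. With offsets for gene length and GC content it was 4 higher and 8 lower, where 2126 of 4287 genes called were higher. From 2 to 20 kPa on elastic gels 6 (17.1%) were called higher and 4 (11.4%) lower, beside 6.81% and 7.14% of all genes, with a median of 0.10. The length and GC offsets gave 11 higher and 3 lower, with 1176 of 2077 genes called higher.

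From 2 to 20 kPa on viscoelastic gels edgeR called 0 members, beside 1.58% of all genes higher and 0.695% lower. At an unadjusted p under 0.05 there were 5 such members, and the share of all tested genes at that threshold is not given here. DESeq2's Wald test called 1, and edgeR with no filter on low counts called 2. Over all genes DESeq2 called 760 and the fit with no filter 653, beside 331 in the main fit. Averaged over both stiffnesses, 10 members (28.6%) were called higher on viscoelastic gels and 6 (17.1%) lower, beside 19.6% and 20.4% of all genes. Total counts alone gave 15 higher and 3 lower. In that fit 3538 of the 5847 genes called were higher, beside 2846 of 5817 with TMM. The interaction, the stiffness response on viscoelastic gels less the one on elastic gels, was called positive for 1 member (2.86%) and negative for 5 (14.3%), beside 4.45% and 3.12% of all genes. The median of all tested genes lay between -0.01 and 0.02 on the log2 scale in each of these comparisons. Comparisons that name the same group share its samples, so their values stand side by side and are not independent.

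**Figure D1:**
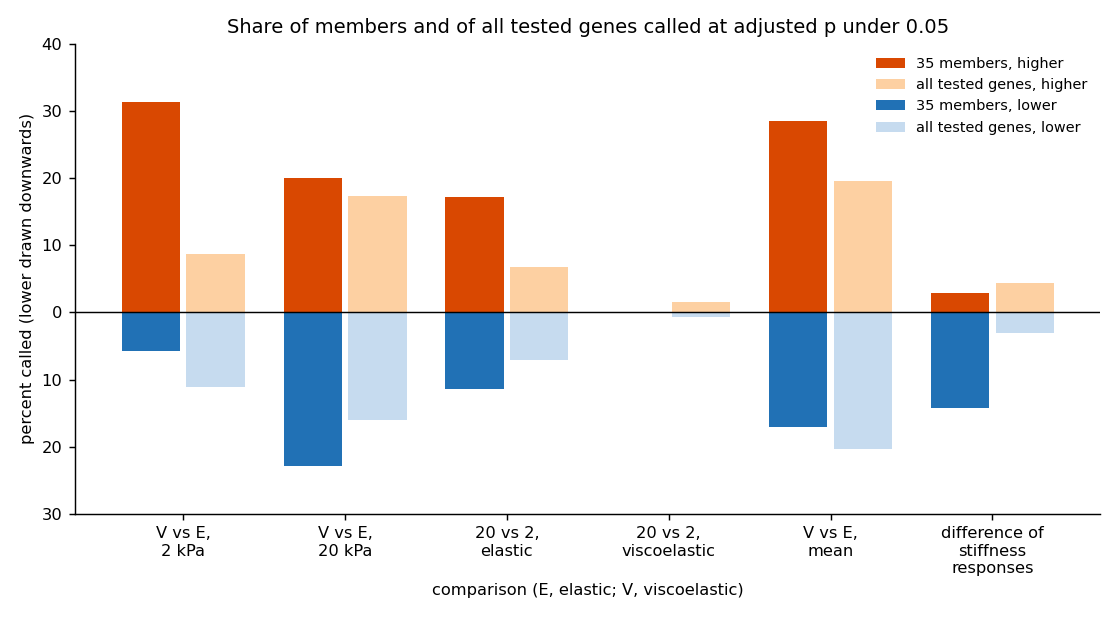
Percent of the 35 members (dark bars) and of all 14542 tested genes (pale bars) called at adjusted p under 0.05 in each comparison, with higher drawn upwards and lower downwards from 0. Members called higher on 2-kPa viscoelastic gels stand at 31.4% beside 8.77% of all genes, and on viscoelastic gels no member is called between stiffnesses.

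Many of these calls were lost when 1 sample was left out, and the calls over all genes fell as well. Of the 60 calls of a member in a comparison, 35 were lost in at least 1 of the 12 fits that each left out 1 sample, and 23 were kept in every such fit and under every other alternative except a stricter threshold. On 2-kPa gels the count of 13 fell to 4 without 2 kPa elastic replicate 1, to 6 without 2 kPa elastic replicate 3 and to 6 without 2 kPa viscoelastic replicate 3, while the count over all genes went from 2892 to 1545, 2630 and 1958. On 20-kPa gels the count of 15 fell to 8 without 20 kPa elastic replicate 3 and to 9 without 20 kPa viscoelastic replicate 3, and that over all genes from 4866 to 3177 and 3698. On elastic gels the count of 10 between stiffnesses fell to 3 without 2 kPa elastic replicate 1, 4 without 20 kPa elastic replicate 3, and 6 without 2 kPa elastic replicate 3 or 20 kPa elastic replicate 2, and that over all genes from 2029 to 1167, 1063, 1360 and 1439. With only the compared groups in the fit, the 2-kPa calls of Gpi1, Aldoa, Aldoc, Tpi1, Gapdh and Bnip3 were lost. With the length and GC offsets, Tpi1, Pgk1, Bnip3, Ankrd37 and Adm were no longer called at 2 kPa, Hk1, Hk2, Pfkm, Pfkfb4, Pkm, Ldhb and Adm at 20 kPa, and Pdk2 between stiffnesses on elastic gels. The same offsets lost the calls of Hk1, Pfkp, Pfkfb4 and Tpi1 in the mean viscoelastic effect.

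**Figure D2:**
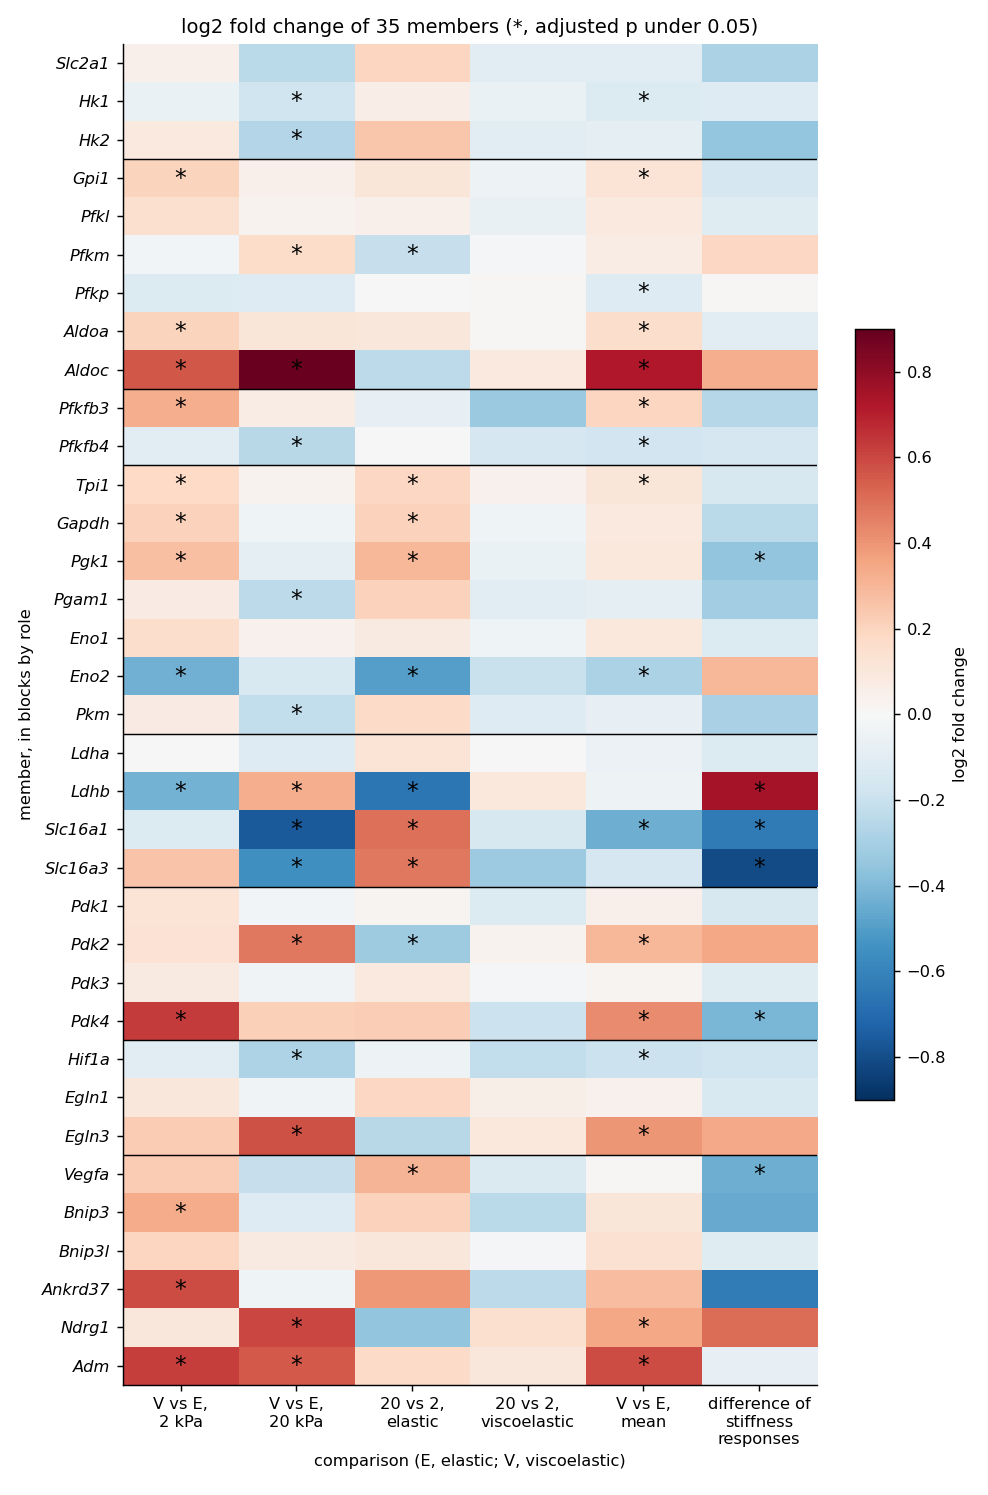
Log2 fold change (colour) of each member (vertical axis, in blocks by role) in the 4 comparisons of 2 groups, the mean viscoelastic effect and the difference of stiffness responses (horizontal axis), with an asterisk where the adjusted p was under 0.05. Slc16a1 and Slc16a3 are called lower on 20-kPa viscoelastic gels (-0.76 and -0.55) and higher with stiffness on elastic gels (0.49 and 0.48), and the column for stiffness on viscoelastic gels has no asterisk.

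The HIF core letters were looked for before the starts of the members, because HIF targets are grouped by this sequence. The letters ACGTG or GCGTG on either strand occurred within 250 bases upstream of the start in 38 of 48 RefSeq promoter entries (79.2%) of the 33 members that have an entry. They occurred in 38.6% of all 32851 entries and in 54.2% of those of tested genes. Counted by gene, they occurred in 90.9% of the 33 members and in 60.2% of tested genes with an entry. The list was drawn up in part from HIF targets, so the higher share is not an independent result. The 3 members with an entry and no match in it were Gpi1, Tpi1 and Eno2, and Bnip3l and Ndrg1 were not matched. A palindromic CACGTG counts as 1 match on each strand. The stretches below are shown for 7 members that have a single entry and carry the main differences described here: the lactate carriers and Ldhb, Pgk1 and Pdk4, whose stiffness responses differed between gel types, and the HIF targets Adm and Egln3. Each runs 5′ to 3′ on the gene's strand in GRCm38.p6, from 20 bases before the first match to at most 20 after the last, with the core letters in capitals. They lie at chr3:104638444-104638554 (+ strand) for Slc16a1, chr11:120949020-120949066 (+) for Slc16a3, chr6:142508059-142508103 (-) for Ldhb, chrX:106186930-106186993 (+) for Pgk1, chr6:5496325-5496369 (-) for Pdk4, chr7:110627547-110627627 (+) for Adm and chr12:54204079-54204123 (-) for Egln3.
Slc16a1: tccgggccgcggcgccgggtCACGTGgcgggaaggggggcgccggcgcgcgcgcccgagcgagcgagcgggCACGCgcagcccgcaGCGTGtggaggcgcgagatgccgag
Slc16a3: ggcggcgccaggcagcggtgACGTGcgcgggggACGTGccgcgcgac
Ldhb: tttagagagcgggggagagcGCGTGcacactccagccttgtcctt
Pgk1: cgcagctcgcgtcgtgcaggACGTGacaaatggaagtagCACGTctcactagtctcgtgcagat
Pdk4: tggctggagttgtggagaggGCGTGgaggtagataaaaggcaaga
Adm: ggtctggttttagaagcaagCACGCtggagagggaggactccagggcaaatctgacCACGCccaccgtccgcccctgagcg
Egln3: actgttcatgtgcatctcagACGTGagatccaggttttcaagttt
The Slc16a1 stretch holds 4 matches and the Slc16a3, Pgk1 and Adm stretches 2 each, against 1 each for Ldhb, Pdk4 and Egln3. In Slc16a3 the matches start 27 and 14 bases before the RefSeq transcript start, which lies inside the longer GENCODE gene, and in Egln3 229 bases before it. On 20-kPa viscoelastic against elastic gels the members shown include Slc16a1 and Slc16a3, called lower, and Ldhb, Adm and Egln3, called higher. Binding of HIF was not measured in these files.

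Below, values in the 3 samples of a group are CPM in the order of replicates 1 to 3, and gene positions are those of GENCODE on mm10. The glucose transporter did not pass the test, and both hexokinases were called lower on stiff viscoelastic gels. Slc2a1 (chr4:119108711-119137983, + strand), the main glucose transporter of fibroblasts, had 86.7, 89.1 and 84.6 CPM on 2-kPa elastic gels and 101.9, 86.2 and 109.3 on 20-kPa elastic gels. On viscoelastic gels it had 82.6, 102 and 83.7 at 2 kPa and 81.2, 92.0 and 78.5 at 20 kPa. The 4 groups overlapped, and Slc2a1 passed in none of the 6 comparisons, with its lowest adjusted p, 0.062, for viscoelastic against elastic gels at 20 kPa (log2 fold change -0.24, SE 0.09). The hexokinases Hk1 and Hk2, which trap glucose by phosphorylation, had group means of 148 to 167 and 31.3 to 37.5 CPM. They were lower on 20-kPa viscoelastic than on 20-kPa elastic gels by 0.18 (SE 0.06, adjusted p = 0.044) and 0.26 (SE 0.08, adjusted p = 0.022) on the log2 scale. The Hk1 call was lost in 7 of the 12 fits that left out 1 sample and with offsets for gene length and GC content (adjusted p = 0.32), and the Hk2 call in 3 of 12.

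**Figure D3:**
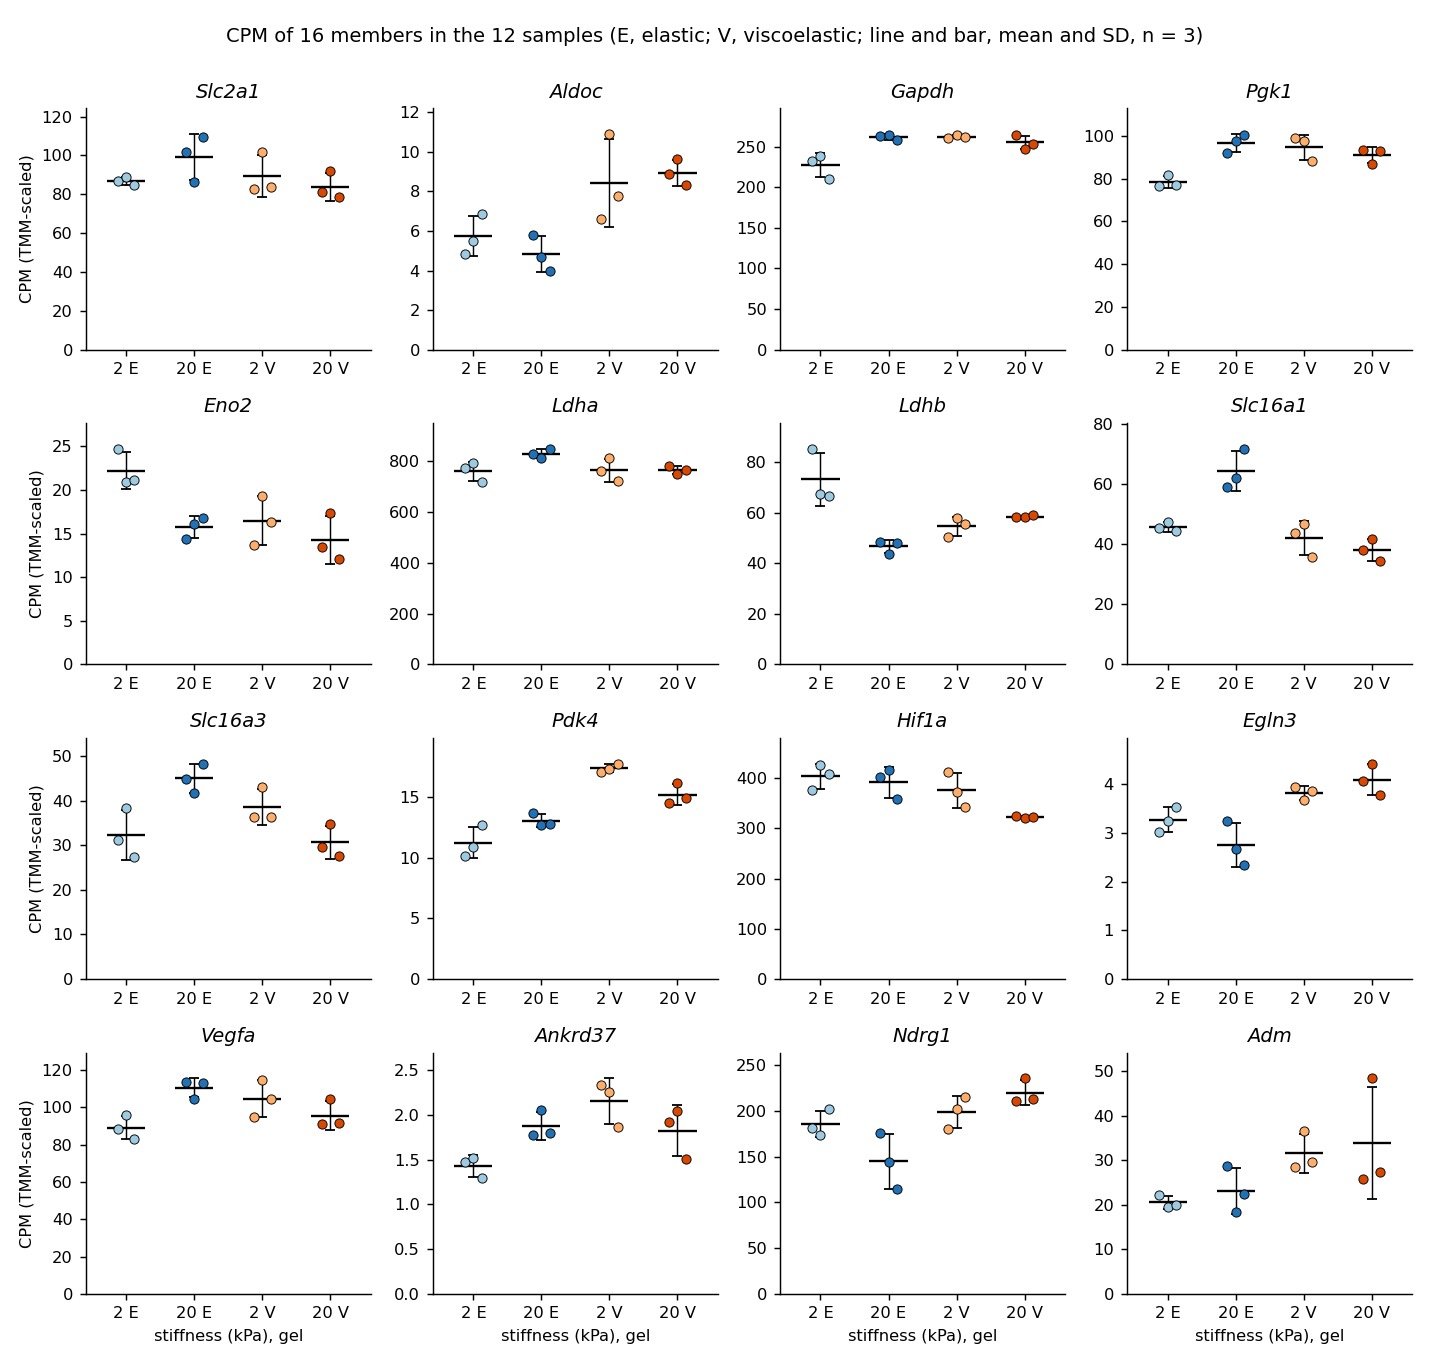
CPM (vertical axes, from 0) of 16 members in each of the 12 samples, grouped by stiffness in kPa and gel type, with points for samples and a line and bar for the mean and SD (n = 3). The 3 samples on 20-kPa elastic gels hold the highest Slc16a1 values (59.1 to 71.6) and the lowest mean of Ldhb (46.7), and 1 sample on 20-kPa viscoelastic gels reaches 48.4 CPM of Adm.

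The upper steps, from glucose 6-phosphate to triose phosphates, had 3 of 6 members called higher on viscoelastic gels at 2 kPa, beside 8.77% of all tested genes. Aldoc had the largest change of the 6. Aldoc (chr11:78322968-78327781, + strand), the brain-type aldolase and the minor aldolase in these cells, had 4.86, 5.49 and 6.84 CPM on 2-kPa elastic and 5.81, 4.70 and 3.99 on 20-kPa elastic gels. Its values were 6.59, 10.9 and 7.78 on 2-kPa viscoelastic and 8.89, 9.63 and 8.33 on 20-kPa viscoelastic gels. At 20 kPa the gel types did not overlap, and at 2 kPa the lowest viscoelastic sample lay under the highest elastic one. In the edgeR fit its log2 fold change, viscoelastic against elastic, was 0.89 (SE 0.18, adjusted p = 0.0018) at 20 kPa and 0.56 (SE 0.18, adjusted p = 0.037) at 2 kPa. The 20-kPa call was kept in all 12 fits without a sample. Its 2-kPa call was lost without 2 kPa elastic replicates 1 or 2 (adjusted p = 0.16 and 0.11) or 2 kPa viscoelastic replicates 2 or 3 (0.17 and 0.058), and without 2 kPa viscoelastic replicate 2 the change was 0.33.

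The bulk aldolase Aldoa, with group means of 528 to 612 CPM, was higher on viscoelastic gels at 2 kPa (0.20, adjusted p = 0.038) and over both stiffnesses (0.16, adjusted p = 0.014), and the first call was lost in 8 of 12 fits while the second was kept in every fit. Aldoc made up 0.75% ± 0.11 (SD, n = 3) of aldolase CPM per kilobase of exon on 20-kPa elastic gels and 1.29% ± 0.06 on 20-kPa viscoelastic gels. Gpi1, the isomerase after hexokinase, averaged 238.5 CPM on 2-kPa viscoelastic against 208 on 2-kPa elastic gels, a rise of 0.20 (adjusted p = 0.019), a call lost without 2 kPa elastic replicate 3 (0.075). Among the phosphofructokinases, which commit glucose to glycolysis, the muscle-type Pfkm was lower on 20-kPa than on 2-kPa elastic gels by 0.21 (adjusted p = 0.026) and higher on 20-kPa viscoelastic than on 20-kPa elastic gels by 0.16 (adjusted p = 0.037), calls lost in 4 and 6 of 12 fits. The liver type Pfkl, with group means of 121 to 134 CPM, was called in no comparison, and the platelet type Pfkp only in the mean viscoelastic effect (-0.12, adjusted p = 0.044), where 8 of 12 fits lost it. The Pfkp call was also lost with offsets for gene length and GC content (adjusted p = 0.90). Pfkp shares 17.1% of its 50-base windows with the gene Pitrm1.

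The bifunctional PFKFB enzymes set fructose 2,6-bisphosphate, the strongest activator of phosphofructokinase. Averaged over both stiffnesses, Pfkfb3 was called higher on viscoelastic gels (0.20, adjusted p = 0.024) and Pfkfb4 lower (-0.175, adjusted p = 0.035) by edgeR. These calls were lost in 5 and 7 of the 12 fits that left out 1 sample. Pfkfb3, which has high kinase activity, averaged 86.0 CPM on 2-kPa viscoelastic against 68.7 on 2-kPa elastic gels, a log2 fold change of 0.32 (adjusted p = 0.020) that was lost without 2 kPa elastic replicate 1 (0.10) or 2 kPa viscoelastic replicate 3 (0.065). Between stiffnesses on viscoelastic gels its change was -0.33 with an adjusted p of 0.063 by edgeR and 0.016 by DESeq2, and it is the member that DESeq2 called there. Pfkfb4, with group means of 5.98 to 7.11 CPM, was lower on 20-kPa viscoelastic than on 20-kPa elastic gels (-0.25, adjusted p = 0.039). That call was lost in 5 of 12 fits without a sample and under 6 of 8 other alternatives. In the same comparison Pfkfb3 changed by 0.07 and was not called.

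Several lower steps, from triose phosphates to pyruvate, were higher both on 2-kPa viscoelastic and on 20-kPa elastic gels than on 2-kPa elastic gels. Gapdh (chr6:125161715-125166467, - strand), the triose phosphate dehydrogenase often used as a reference gene, had 232, 239 and 210.5 CPM on 2-kPa elastic and 263, 265 and 258.5 on 20-kPa elastic gels. On viscoelastic gels it had 260.2, 264 and 262.5 at 2 kPa and 264.5, 248 and 254 at 20 kPa. All 3 samples on 2-kPa elastic gels lay under the other 9. Its log2 fold change was 0.21 both for viscoelastic against elastic at 2 kPa (SE 0.06, adjusted p = 0.021) and for 20 against 2 kPa on elastic gels (SE 0.06, adjusted p = 0.028), by edgeR. The first call was lost without 2 kPa elastic replicates 1 or 3 (0.052 and 0.091) or 2 kPa viscoelastic replicate 3 (0.056), the second without 2 kPa elastic replicates 1 or 3 or 20 kPa elastic replicates 2 or 3 (adjusted p up to 0.13).

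Pgk1 (chrX:106187100-106203699, + strand), which makes the first ATP of the pathway, had 76.6, 81.8 and 77.2 CPM on 2-kPa elastic and 92.1, 97.5 and 100.3 on 20-kPa elastic gels. The values were 98.8, 97.4 and 88.1 on 2-kPa viscoelastic and 93.6, 86.7 and 92.9 on 20-kPa viscoelastic gels. Here too the 2-kPa elastic samples were the 3 lowest of 12. The log2 fold change was 0.30 (SE 0.06, adjusted p = 0.0047) with stiffness on elastic gels and 0.27 (SE 0.06, adjusted p = 0.0064) on viscoelastic against elastic gels at 2 kPa, by edgeR. Both calls were kept in all 12 fits without a sample. With offsets for gene length and GC content the second became 0.17 with an adjusted p of 0.072. Tpi1, the triose phosphate isomerase, averaged 265 CPM on 2-kPa elastic and 300.3 to 309 in the other groups, with log2 fold changes of 0.19 and 0.18 (adjusted p = 0.032 and 0.031), calls lost in 5 and 4 of 12 fits.

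Eno2 (chr6:124760053-124769673, - strand), the neuronal enolase, ran against these genes. Its CPM were 24.7, 20.9 and 21.1 on 2-kPa elastic, 14.3, 16.1 and 16.8 on 20-kPa elastic, 13.7, 19.3 and 16.4 on 2-kPa viscoelastic and 13.4, 17.4 and 12.1 on 20-kPa viscoelastic gels. The 2-kPa elastic samples lay above the other 9, which overlapped. Eno2 was lower by 0.50 (SE 0.13, adjusted p = 0.021) with stiffness on elastic gels and by 0.43 (SE 0.13, adjusted p = 0.031) on viscoelastic than elastic gels at 2 kPa. The former was lost without 2 kPa elastic replicate 1 (0.0997) or 20 kPa elastic replicates 1 or 2 (0.080 and 0.052), and the latter without 2 kPa elastic replicates 1 or 2 (0.14 and 0.051) or 2 kPa viscoelastic replicates 1 or 3 (0.10 and 0.082). Eno1, the bulk enolase, had group means of 480.4 to 536 CPM and was called in no comparison. Pgam1, a mutase, and Pkm, the last kinase of the pathway, averaged 23.4 and 1292 CPM on 20-kPa viscoelastic against 27.5 and 1504 on 20-kPa elastic gels. They were lower by 0.23 and 0.22 (adjusted p = 0.024 and 0.024), and each call was lost in 4 of 12 fits.

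At the lactate end of the pathway Ldhb, Slc16a1 and Slc16a3 had the largest called differences in stiffness response among the members. Ldha (chr7:46841475-46855627, + strand), the muscle-type lactate dehydrogenase and a HIF target, had 772, 791 and 718 CPM on 2-kPa elastic, 827, 813 and 848 on 20-kPa elastic, 760.4, 811 and 720.3 on 2-kPa viscoelastic and 782, 751 and 766 on 20-kPa viscoelastic gels. The groups overlapped at 2 kPa and did not at 20 kPa, and Ldha passed in no comparison, with a largest absolute log2 fold change in a pair of groups of 0.13 (adjusted p = 0.22, stiffness on elastic gels).

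Ldhb (chr6:142490249-142507957, - strand), the heart-type subunit that favours lactate oxidation, had 85.2, 67.5 and 66.7 CPM on 2-kPa elastic and 48.4, 43.7 and 47.9 on 20-kPa elastic gels. On viscoelastic gels it had 50.5, 57.9 and 55.3 at 2 kPa and 58.1, 58.3 and 58.9 at 20 kPa. No pair of compared groups overlapped: Ldhb was highest on soft elastic and lowest on stiff elastic gels, with viscoelastic gels between. The Schwann marker sum given above was likewise higher on elastic gels at 2 kPa and on viscoelastic gels at 20 kPa, and its part in the Ldhb values was not tested. It was lower by 0.65 (SE 0.08, adjusted p = 0.00025) with stiffness on elastic gels, lower by 0.42 (SE 0.08, adjusted p = 0.0033) on viscoelastic than elastic gels at 2 kPa, and higher by 0.32 (SE 0.08, adjusted p = 0.0093) at 20 kPa, by edgeR. Every one of these calls was kept in all 12 fits, and the 20-kPa call was lost with offsets for gene length and GC content (adjusted p = 0.13). Its stiffness response on viscoelastic gels, 0.10 (adjusted p = 0.57), exceeded that on elastic gels by 0.75 (SE 0.12, adjusted p = 0.0016), the only positive interaction called among the members. Of the lactate dehydrogenase CPM per kilobase of exon, Ldhb took 16.8% ± 1.86 (SD, n = 3) on 2-kPa elastic, 10.6% ± 0.39 on 20-kPa elastic, 13.1% ± 0.83 on 2-kPa viscoelastic and 13.9% ± 0.28 on 20-kPa viscoelastic gels.

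Slc16a1 (chr3:104638668-104658462, + strand), the carrier MCT1 that moves lactate with a proton either way, had 45.4, 47.4 and 44.2 CPM on 2-kPa elastic and 59.1, 62.1 and 71.6 on 20-kPa elastic gels. On viscoelastic gels it had 43.8, 46.6 and 35.7 at 2 kPa and 38.1, 41.7 and 34.2 at 20 kPa. The stiff elastic samples lay above all others, which overlapped in part. Slc16a1 was higher by 0.49 (SE 0.10, adjusted p = 0.0039) with stiffness on elastic gels and lower by 0.76 (SE 0.10, adjusted p = 0.00014) on viscoelastic than elastic gels at 20 kPa. Both calls, and the interaction of -0.64 (SE 0.14, adjusted p = 0.011), were kept in all 12 fits and under the other alternatives at an adjusted p of 0.05.

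Slc16a3 (chr11:120948480-120960868, + strand), the carrier MCT4 that exports lactate from glycolytic cells, had 31.2, 38.4 and 27.5 CPM on 2-kPa elastic and 44.9, 41.9 and 48.4 on 20-kPa elastic gels. On viscoelastic gels it had 36.4, 43.2 and 36.3 at 2 kPa and 29.7, 34.8 and 27.6 at 20 kPa. The stiff elastic samples lay above those on soft elastic and on stiff viscoelastic gels, while soft elastic and soft viscoelastic samples overlapped. Slc16a3 was higher by 0.48 (SE 0.11, adjusted p = 0.012) with stiffness on elastic gels and lower by 0.55 (SE 0.11, adjusted p = 0.0022) on viscoelastic than elastic gels at 20 kPa. The former was lost without 2 kPa elastic replicates 1 or 3 (0.054 and 0.057) or 20 kPa elastic replicate 3 (0.056). Its interaction was -0.81 (SE 0.16, adjusted p = 0.0068), kept in all 12 fits, and on viscoelastic gels alone its stiffness response of -0.33 had an adjusted p of 0.13. The promoter stretches of both carriers, printed above, hold the core letters. The lower chondrocyte marker sum on 20-kPa elastic gels stands beside these differences, and its part in them was not tested.

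**Figure D4:**
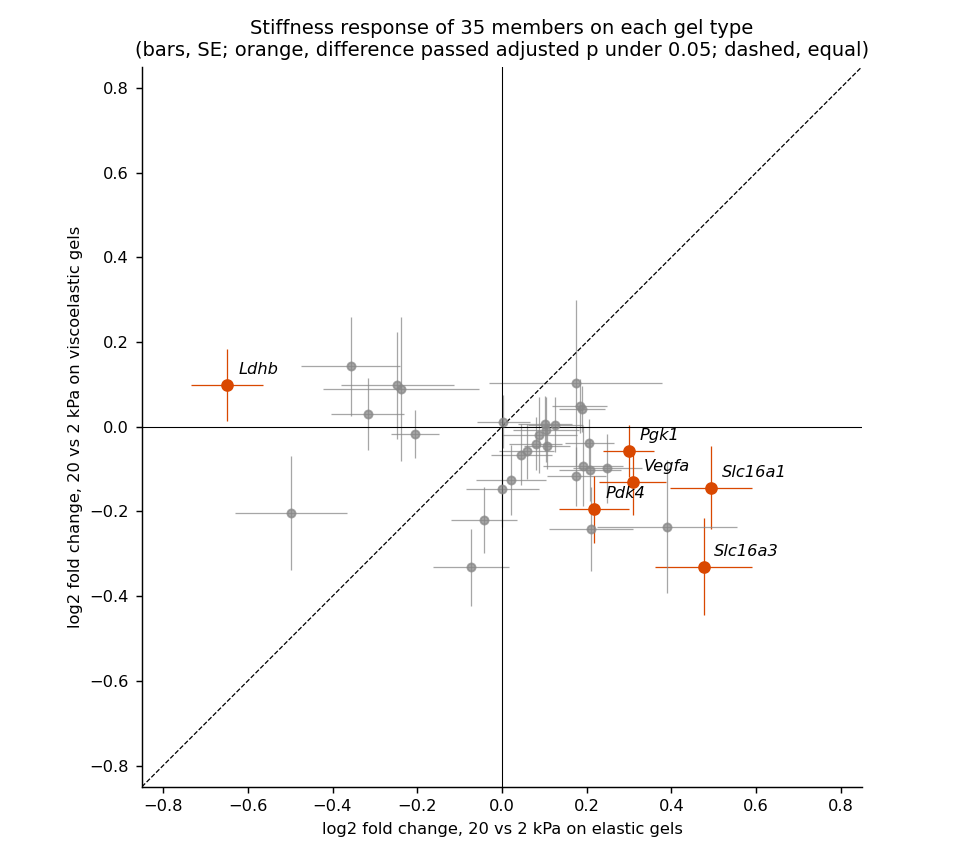
Log2 fold change from 2 to 20 kPa of each member on elastic gels (horizontal axis) and on viscoelastic gels (vertical axis), with SE bars and a dashed line of equal response; orange points are members whose responses differed at adjusted p under 0.05. Slc16a1, Slc16a3, Pgk1, Vegfa and Pdk4 lie right of 0 and under the dashed line, and Ldhb lies left of 0 at -0.65 and above it.

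The PDK kinases, which hold back pyruvate oxidation, split by member. Pdk4 (chr6:5483351-5496309, - strand), the isoform linked to fatty acid use and fasting, had 10.2, 10.9 and 12.7 CPM on 2-kPa elastic, 13.7, 12.7 and 12.8 on 20-kPa elastic, 17.1, 17.3 and 17.7 on 2-kPa viscoelastic and 14.5, 16.1 and 14.9 on 20-kPa viscoelastic gels. All 6 viscoelastic samples lay above all 6 elastic ones. Pdk4 was higher on viscoelastic gels by 0.63 (SE 0.08, adjusted p = 0.00018) at 2 kPa and by 0.42 (SE 0.06, adjusted p = 7.9e-05) over both stiffnesses, calls kept under every alternative with the 0.05 threshold. At 20 kPa alone it was higher by 0.22 with an adjusted p of 0.051, and the interaction of -0.41 (SE 0.12, adjusted p = 0.041) was lost in 10 of 12 fits (adjusted p up to 0.11), kept only without 2 kPa elastic replicate 3 or 20 kPa viscoelastic replicate 2.

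Pdk2 averaged 14.1 CPM on 20-kPa elastic and 19.6 on 20-kPa viscoelastic gels, a change of 0.47 (SE 0.09, adjusted p = 0.00093) kept in all 12 fits. It was also lower with stiffness on elastic gels (-0.32, adjusted p = 0.025), a call lost without 2 kPa elastic replicates 1 or 2 (0.094 and 0.069) or 20 kPa elastic replicate 3 (0.12). Pdk1, a HIF target with group means of 61.2 to 66.7 CPM, and Pdk3, with 51.3 to 54.5 CPM and the most CPM per kilobase of the PDK genes, were called in no comparison.

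On 20-kPa viscoelastic gels transcripts of the HIF alpha subunit were lower, and those of its hydroxylase Egln3 higher, than on 20-kPa elastic gels. Hif1a (chr12:73901375-73947530, + strand) had 377, 426 and 409 CPM on 2-kPa elastic, 402, 417 and 358 on 20-kPa elastic, 413, 373 and 343 on 2-kPa viscoelastic and 325, 322 and 322.5 on 20-kPa viscoelastic gels. The 3 samples on stiff viscoelastic gels were the lowest of 12 and close together, and the other groups overlapped. Against 20-kPa elastic gels Hif1a was lower by 0.28 (SE 0.08, adjusted p = 0.012), a call lost without 20 kPa elastic replicate 2 (0.062), and over both stiffnesses it was lower by 0.19 (SE 0.05, adjusted p = 0.012) in every fit. At 2 kPa alone the change between gel types was -0.10 and was not called.

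Egln3 (chr12:54178981-54203860, - strand), a prolyl hydroxylase that HIF itself raises, had 3.02, 3.26 and 3.54 CPM on 2-kPa elastic, 3.25, 2.67 and 2.34 on 20-kPa elastic, 3.95, 3.67 and 3.87 on 2-kPa viscoelastic and 4.07, 4.43 and 3.79 on 20-kPa viscoelastic gels. All 6 viscoelastic samples lay above all 6 elastic ones, at 95 to 188 counts per sample. The log2 fold change was 0.57 (SE 0.13, adjusted p = 0.0039) at 20 kPa and 0.40 (SE 0.09, adjusted p = 0.0031) over both stiffnesses, kept in every fit, and 0.23 with an adjusted p of 0.23 at 2 kPa. Egln1, the main hydroxylase of most cells, was called in no comparison, with group means of 77.3 to 87.8 CPM, and took 94.0% to 95.9% of the CPM per kilobase of the pair.

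The other HIF targets were called in different comparisons. Vegfa (chr17:46016993-46032369, - strand), the angiogenic growth factor, had 88.3, 96.0 and 83.3 CPM on 2-kPa elastic, 113.7, 104.6 and 113.1 on 20-kPa elastic, 94.7, 114.6 and 104.7 on 2-kPa viscoelastic and 91.1, 104.4 and 91.4 on 20-kPa viscoelastic gels. Stiff elastic samples lay above soft elastic ones, and the soft viscoelastic samples overlapped both. It was higher by 0.31 (SE 0.08, adjusted p = 0.018) with stiffness on elastic gels and had an interaction of -0.44 (SE 0.11, adjusted p = 0.027). The first call was lost without 2 kPa elastic replicates 1 or 3 (0.063 and 0.079) or 20 kPa elastic replicate 3 (0.067), and the interaction without any of these (0.066, 0.067 and 0.060) or 20 kPa viscoelastic replicates 1 or 3 (0.072 each).

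Ankrd37 (chr8:45996902-46005707, - strand), a small ankyrin-repeat protein, had 1.48, 1.52 and 1.29 CPM on 2-kPa elastic, 1.77, 2.05 and 1.8 on 20-kPa elastic, 2.34, 2.26 and 1.86 on 2-kPa viscoelastic and 1.92, 2.05 and 1.505 on 20-kPa viscoelastic gels. The soft elastic samples lay under those on soft viscoelastic and on stiff elastic gels. It was higher on viscoelastic gels at 2 kPa by 0.59 (SE 0.16, adjusted p = 0.020), a call lost without 2 kPa elastic replicates 1 or 3 (0.057 and 0.062) or 2 kPa viscoelastic replicates 1 or 2 (0.056 and 0.053), and with offsets for length and GC content (0.070).

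Ndrg1 (chr15:66929318-66969640, - strand), a stress- and hypoxia-responsive gene, had 181, 174 and 202 CPM on 2-kPa elastic, 176, 145 and 115 on 20-kPa elastic, 180.4, 202 and 215 on 2-kPa viscoelastic and 211, 236 and 213 on 20-kPa viscoelastic gels. At 20 kPa every viscoelastic sample exceeded every elastic one, and at 2 kPa the gel types overlapped. The log2 fold change was 0.60 (SE 0.12, adjusted p = 0.0015) at 20 kPa, kept in every fit, and 0.10 (adjusted p = 0.58) at 2 kPa. The interaction of 0.50 did not pass by edgeR (adjusted p = 0.083) and did by DESeq2 (adjusted p = 0.045).

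Adm (chr7:110627661-110629820, + strand), which encodes the vasodilator adrenomedullin, had 22.2, 19.5 and 20.0 CPM on 2-kPa elastic, 28.7, 18.5 and 22.4 on 20-kPa elastic, 28.6, 36.6 and 29.6 on 2-kPa viscoelastic and 25.9, 48.4 and 27.4 on 20-kPa viscoelastic gels. At 2 kPa the gel types did not overlap, at 20 kPa they did, and 20 kPa viscoelastic replicate 2 stood far above the rest. Over both stiffnesses Adm was higher on viscoelastic gels by 0.58 (SE 0.14, adjusted p = 0.0046) in every fit. The change of 0.62 (SE 0.20, adjusted p = 0.042) at 2 kPa was lost in 5 of 12 fits, without any 2 kPa elastic sample or without 2 kPa viscoelastic replicates 2 or 3 (adjusted p up to 0.13), and by DESeq2 (0.079). That of 0.55 (SE 0.20, adjusted p = 0.046) at 20 kPa was lost in 7 of 12 fits and by DESeq2 (0.11), and without 20 kPa viscoelastic replicate 2 it was 0.20 with an adjusted p of 0.33.

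The mitophagy receptors Bnip3 and Bnip3l, both HIF targets, averaged 36.4 and 80.3 CPM on 2-kPa viscoelastic against 28.8 and 70.1 on 2-kPa elastic gels. Bnip3 was called (0.34, SE 0.10, adjusted p = 0.027) and Bnip3l was not (0.20, adjusted p = 0.089). The Bnip3 call was lost without 2 kPa elastic replicates 1 or 3 (0.14 and 0.082) or 2 kPa viscoelastic replicate 1 (0.11), where the change was 0.22, and with offsets for length and GC content (0.11).

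Across roles, 8 members were called in none of the 6 comparisons: Slc2a1, Pfkl, Eno1, Ldha, Pdk1, Pdk3, Egln1 and Bnip3l. The share of all tested genes called in none is not given here. The summed CPM of 15 enzyme genes from hexokinase to pyruvate kinase was 3421 to 3769 on 2-kPa elastic, 3925 to 3965 on 20-kPa elastic, 3796 to 4078 on 2-kPa viscoelastic and 3714 to 3885 on 20-kPa viscoelastic gels, so the soft elastic samples were lowest except that 1 of them exceeded the lower 2 of the stiff viscoelastic samples. Per kilobase of exon, the most abundant members were Pkm, Ldha and Aldoa, at means of 276, 236 and 199 CPM per kilobase over the 12 samples, followed by Tpi1 and Eno1 at 107 and 95.1. The ranges of Pkm and Ldha overlapped, as did those of Ldha and Aldoa, while Aldoa and Tpi1 were separate. Ankrd37, Egln3 and Pfkfb4 were lowest, at 1.18, 1.31 and 1.38 CPM per kilobase, and their ranges overlapped.

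**Figure D5:**
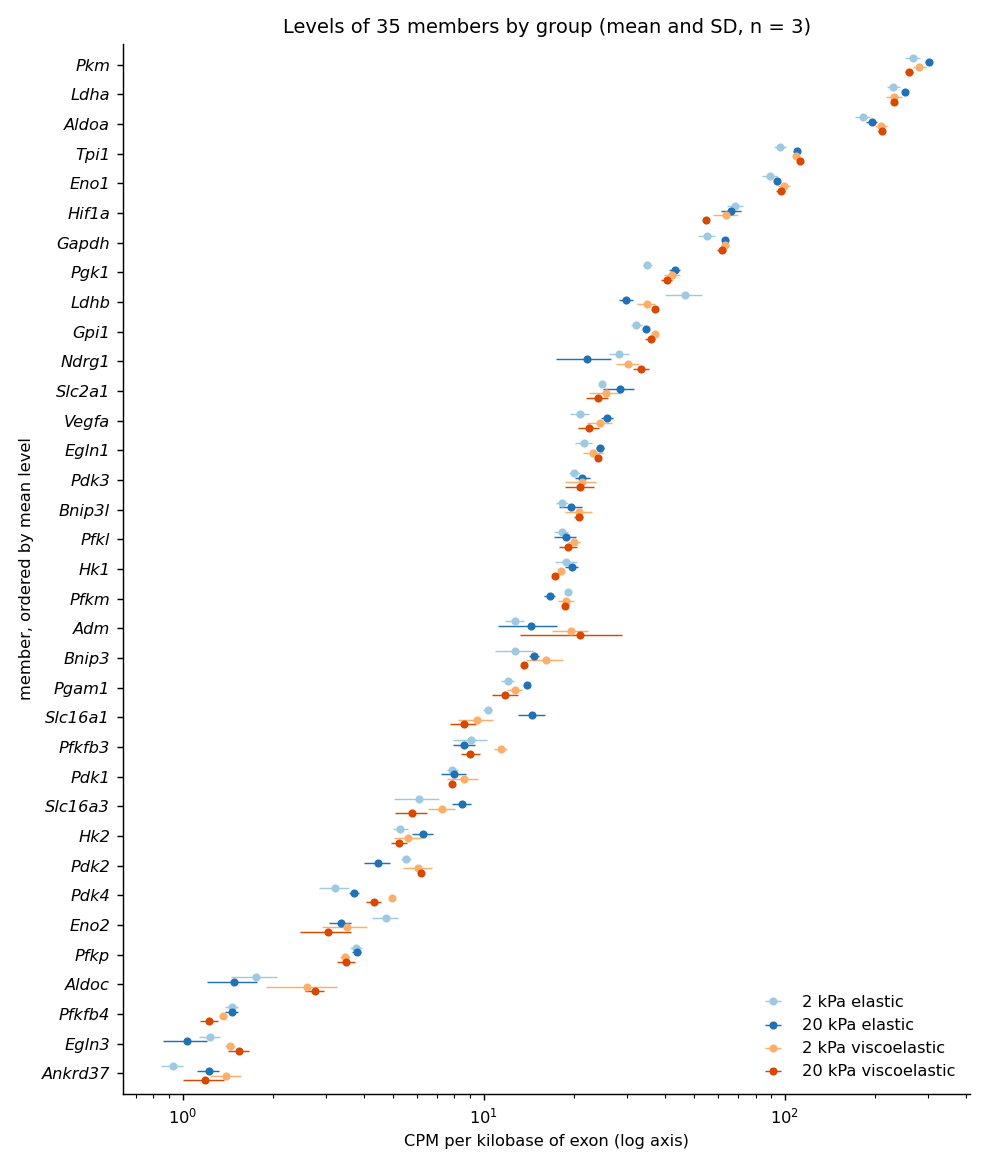
Mean and SD (n = 3) of CPM per kilobase of exon (log horizontal axis) of each member by group, ordered by mean level. Levels run from 1.18 for Ankrd37 to 276 for Pkm as means over 12 samples, and group differences are small beside the differences between genes.

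Some members share sequence with other genes. Of their 50-base windows, 82.5% recurred in other annotated genes for Gapdh, 72.2% for Eno1, 68.0% for Pgk1, 62.5% for Bnip3 and 41.5% for Pgam1. The share was 34.4% for Pkm, 27.0% for Ldhb, 25.3% for Gpi1 and 23.4% for Bnip3l. How reads with several matches were counted is not stated. Among the other genes that share Eno1's windows, Eno1b had the most matches, and it held 27 to 61 counts per sample. The values of these genes are therefore less certain than those of Slc16a1, Slc16a3, Aldoc, Adm and Egln3, which had no such window.

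Other genes of the same pathways moved in part. Of 34 further glycolysis and pyruvate genes 25 were tested, and in the mean viscoelastic effect 7 were called higher and 3 lower, beside 19.6% and 20.4% of all tested genes, with a median log2 fold change of 0.01. Pdp1, the phosphatase that reactivates pyruvate dehydrogenase, was higher on viscoelastic gels by 0.37 (SE 0.07, adjusted p = 0.00053), and the muscle mutase Pgam2 by 0.30 (SE 0.08, adjusted p = 0.0064). Pdp1 averaged 97.2 against 62.1 CPM at 20 kPa (0.65, adjusted p = 0.00022) and 82.9 against 77.3 at 2 kPa (0.10, adjusted p = 0.48). Pgam2 averaged 9.87 against 6.38 CPM at 2 kPa and 6.27 against 6.40 at 20 kPa. Pdpr, a regulator of that phosphatase, and the carrier Slc16a7 were lower by 0.36 and 0.18 (adjusted p = 0.015 and 0.016), and Slc16a7 averaged 9.94 against 13.5 CPM at 2 kPa and 10.49 against 9.89 at 20 kPa. Of the 25, 2 were called higher and 2 lower on viscoelastic than elastic gels at 2 kPa, beside 8.77% and 11.1% of all genes, and 4 and 1 at 20 kPa, beside 17.4% and 16.1%. For stiffness 0 and 4 were called on elastic gels, beside 6.81% and 7.14%, and 2 and 1 on viscoelastic gels, beside 1.58% and 0.695%. The interaction was positive for 3 and negative for 1, beside 4.45% and 3.12%.

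Of 39 further HIF pathway genes 37 were tested, and 10 were called higher and 7 lower in the mean viscoelastic effect, beside 19.6% and 20.4% of all genes, with a median of 0.06. Stc2, a secreted glycoprotein, was higher by 1.37 (SE 0.12, adjusted p = 1.0e-05), with means of 11.8 against 4.07 CPM at 2 kPa and 15.2 against 6.63 at 20 kPa. Epas1, which encodes HIF-2 alpha, was higher by 0.49 (SE 0.06, adjusted p = 3.8e-05), with means of 18.9 against 12.6 CPM at 2 kPa and 20.9 against 15.9 at 20 kPa. Car12, a carbonic anhydrase, was lower by 1.00 (SE 0.16, adjusted p = 0.00030) and Bhlhe40, a transcriptional repressor, by 0.31 (SE 0.06, adjusted p = 0.0011). Of the 37, 9 were called higher and 2 lower on viscoelastic than elastic gels at 2 kPa, beside 8.77% and 11.1% of all genes, and 8 and 10 at 20 kPa, beside 17.4% and 16.1%. For stiffness 9 and 1 were called on elastic gels, beside 6.81% and 7.14%, and 0 and 1 on viscoelastic gels, beside 1.58% and 0.695%. The interaction was positive for 1 and negative for 6, beside 4.45% and 3.12%.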

How the data were processed

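Raw counts of 12 libraries, not normalized, were deposited by the authors, who used Trimmomatic for trimming, STAR for alignment to mm10 and featureCounts for counting. The annotation release, strand setting and the handling of reads with several matches are not given in the sources used here. Poly-A RNA was primed with random hexamers, so longer transcripts collect more counts. Of 33246 symbols 4038 were not matched to GENCODE for length and GC content.

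The fit used edgeR 4.0.16 under R 4.3.3: filterByExpr with the 4 groups (minimum count 10), TMM, 1 coefficient per group over all 12 samples (biological coefficient of variation 7.50%), glmQLFTest, and BH adjustment over 14542 genes, called under 0.05. The fit was tested on simulated data. Alternatives were DESeq2 1.42.0, its size factors, total counts alone, no filter, a replicate block, length and GC offsets, compared groups alone, an adjusted p under 0.01 and leaving out each sample. CPM values are TMM-scaled. Values per sample are given for the 4 called members with the largest change in each comparison of a pair of groups, for members with a called interaction, and for Gapdh, Pgk1, Ldha, Slc2a1 and Hif1a. The further genes named from each of the other lists are the 2 called with the largest change in each direction of the mean viscoelastic effect. The members and lists were chosen with earlier results of these data known. Promoters are RefSeq entries of GRCm38.p6.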

Additional observations from a re-analysis of the deposited data

Results flagged for a closer look

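For 6 members the response to stiffness differed between the gel types by a test of the difference itself, the interaction in edgeR's quasi-likelihood fit. Each value is the log2 change from 2 to 20 kPa on viscoelastic gels less the one on elastic gels. It was 0.75 for Ldhb, -0.81 for Slc16a3, -0.64 for Slc16a1, -0.44 for Vegfa, -0.41 for Pdk4 and -0.36 for Pgk1. The adjusted p stayed under 0.05 in all 12 fits that left out 1 sample for Ldhb, Slc16a3 and Slc16a1. It rose above 0.05 for Pgk1 without 2 kPa elastic replicate 1 (0.058) or 20 kPa elastic replicate 3 (0.052), in 5 of these fits for Vegfa and in 10 for Pdk4. The groups had 3 samples each, so no search for outlying samples within a group was made.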

How the results depend on the processing

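No called member changed direction under any alternative. At an adjusted p under 0.01 the members called numbered 3 for viscoelastic against elastic gels at 2 kPa, 7 at 20 kPa, 3 for stiffness on elastic gels, 7 for the mean viscoelastic effect and 2 for the interaction. Counts over all genes at that threshold are not given here. With the compared groups alone 7 were called at 2 kPa, and 2341 over all genes beside 2892 in the main fit. On viscoelastic gels no filter gave 2 (Pfkfb3 and Slc16a3) and DESeq2 gave 1 (Pfkfb3), and DESeq2 gave 11 interactions. Over all genes DESeq2 called 1357 interactions, beside 1100 in the main fit. Leaving out 1 sample gave 4 to 14 at 2 kPa, 8 to 17 at 20 kPa, 3 to 12 for stiffness on elastic and 0 to 1 on viscoelastic gels (1 without 2 kPa elastic replicate 1), 10 to 17 for the mean effect (10 without 20 kPa elastic replicate 3 or 20 kPa viscoelastic replicate 1) and 3 to 8 for the interaction (3 without 2 kPa elastic replicate 1 or 20 kPa elastic replicate 3). Over all genes the same fits called 1545 to 3085, 3177 to 5381, 1063 to 2369, 9 to 351, 4914 to 6061 and 670 to 1182. The cause was not tested. With the replicate number as a block, 10 were called at 2 kPa, 12 at 20 kPa, 9 on elastic and 0 on viscoelastic gels, 12 for the mean effect and 5 for the interaction. Over all genes the block called 2569, 4485, 1731, 154, 5475 and 845 in the same order. Correlations of same-numbered samples ran from -0.20 to 0.31 and were not all above 0.1 for any pair of groups. Between the 2 viscoelastic groups they were 0.18, 0.31 and 0.05, and those of unlike numbers ran from -0.24 to 0.08. Whether same-numbered samples share a batch was not tested, and the main fit has no block. Of the 60 calls, the block lost 13, length and GC offsets 17, both together 19, no filter 11, total counts alone 7, DESeq2 2 and its size factors 1. Depth limits Ankrd37 and Egln3 most, with at most 188 counts per sample.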
